A study of Mus musculus with 12 samples.

Results

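The collagen genes, together with Sparc, Lox and Fn1, were followed in bone-marrow-derived macrophages (BMDMs) and livers of mice lacking the thyrotropin receptor gene Tshr in myeloid cells. Members were all genes of the count table whose symbol was Col, a number, a and a number, plus those 3 further genes. This gave 47 genes of 55335, namely 44 collagen genes of 27 collagen types and the 3 others. No symbol was listed more than once. Every member was found in GENCODE M21 (GRCm38), from which positions and exon lengths were taken.

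Collagens are trimers of chains wound into a triple helix. Fibrillar collagens (types I, II, III, V, XI, XXIV and XXVII; 11 genes) form or regulate the fibrils that stiffen tissue, whereas type IV collagen (6 genes) forms the sheet-like network of basement membranes. Sparc encodes a collagen-binding matrix protein, Lox an oxidase that starts the cross-linking of fibrils, and Fn1 fibronectin, a matrix protein that hepatocytes also secrete into plasma. In liver, hepatic stellate cells and portal fibroblasts are known as the main makers of fibrillar collagen, and the space between hepatocytes and sinusoids normally holds no continuous basement membrane.

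RNA was sequenced from 12 samples in 4 groups of 3. Tshr MKO mice (Tshr f/f with Lyz2-Cre) carried Cre under the Lyz2 promoter, which drives it in myeloid cells. Floxed Tshr f/f male littermates on C57BL/6N served as controls, so that both genotypes carried the floxed allele. BMDMs came from mice that the labels give as 6 weeks old (6 to 8 weeks in the written methods), were grown for 7 days with 10 ng/mL M-CSF and received 1 ng/mL TSH for 24 hours in both genotypes, so that no library without TSH was compared. Livers came from mice kept on high-fat feed (HFD) from the age of 6 weeks for 9 weeks, fasted for 8 hours and injected with 1.5 U/kg insulin 5 minutes before collection. Each library carried its own sample ID, but the labels did not say which mouse it came from, so p-values measure the spread between these libraries.

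Libraries held 28962878 to 40954211 counts, of which the members took 0.286-0.428% in liver and 0.294-0.977% in BMDMs. Levels are given as CPM, counts scaled to a common library size, after TMM scaling (trimmed mean of M values) within each tissue, and a count of 3, taken as the floor, stood for 0.0733 to 0.104 CPM. Tshr itself could not check the genotype labels, since it had 0 counts in all 6 livers and 0 to 5 counts in BMDMs. In a table of receptor counts from the study, all 72 liver values equalled those of a library labelled with the other genotype, and 8 also equalled a library of the heading's own genotype. The liver groups are therefore named as labelled, and every liver direction below depends on those labels.

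One liver stood apart at the low end and another at the high end. In the library labelled Tshr f/f replicate 1, 18 of the 32 members that passed the filter on low counts had their lowest level of the 6 livers. All 10 hepatic stellate cell markers, 9 of 10 fibroblast or myofibroblast markers and all 10 sinusoidal endothelial markers were also lowest there. Summed stellate cell markers reached 51.5 CPM in this library, against 198 and 325 CPM in the other livers labelled Tshr f/f and 145 to 197 CPM in those labelled Tshr MKO. Summed sinusoidal endothelial markers were 69.3 CPM there and 171 to 294 CPM in the other 5 livers, while hepatocyte markers (92764 CPM) lay within the range of the others (89593-112685 CPM). At the high end, the library labelled Tshr f/f replicate 2 had the highest level for 16 of the 32 members. It also held the highest sums of stellate cell (325 CPM), fibroblast or myofibroblast (214 CPM), macrophage (402 CPM) and Kupffer cell markers (589.9 CPM). The part of these markers in the collagen values was not tested, and in whole tissue fewer cells of a type and less RNA per cell cannot be told apart.

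In liver, Col18a1 and Fn1 exceeded all other members. Col18a1 encodes the chain of type XVIII collagen, a basement-membrane collagen whose end fragment is endostatin, and it held 73.8-87.2% of all collagen CPM in a library. Its level was 1057, 1057 and 878 CPM among livers labelled Tshr f/f and 995, 937 and 899.5 CPM in those labelled Tshr MKO. The groups overlapped and the log2 fold change (Tshr MKO over Tshr f/f, here and below) was -0.08 (SE 0.12). Fn1 had 3578, 2169 and 2319.6 CPM under the Tshr f/f label and 1906, 1481 and 2226 CPM in those labelled Tshr MKO. The highest value belonged to the library with the fewest stellate cell markers, and the log2 fold change was -0.52 (SE 0.24; adjusted p = 0.501, edgeR quasi-likelihood test), or -0.27 without that library. Per kilobase of exon, the mean over the 6 livers was 195 for Fn1 and 138 for Col18a1, followed by Col5a3 at 9.48, Sparc at 8.40 and Col4a1 at 4.82 CPM per kb.

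**Figure D1:**
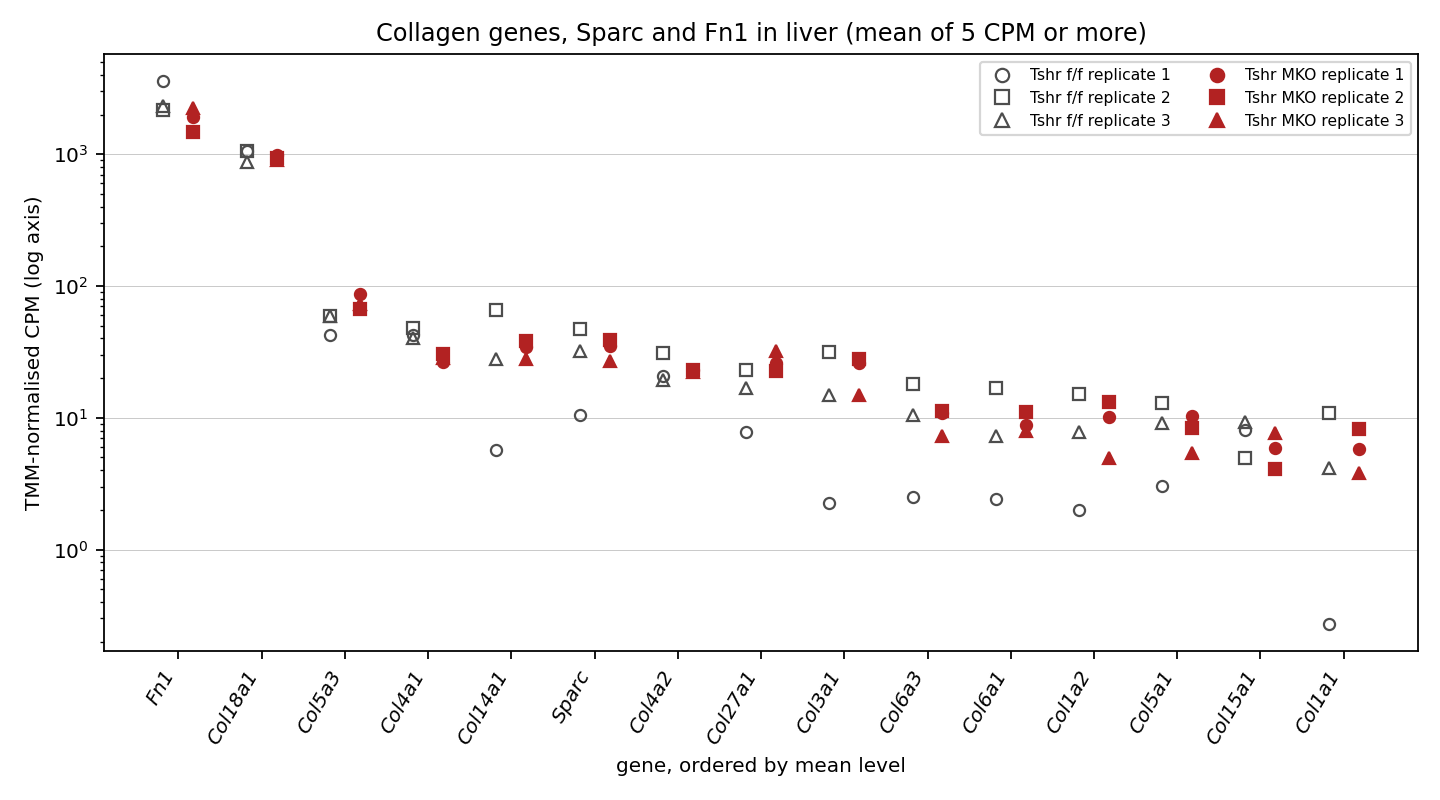
TMM-normalised CPM on a log axis of the 15 members with a mean of at least 5 CPM in liver, with 1 point per library, open for Tshr f/f and filled for Tshr MKO as labelled. Col18a1 and Fn1 lie far above the rest, and the open circles of Tshr f/f replicate 1 fall well below the other livers for Col14a1, Col3a1, Col1a1, Col1a2, Col6a1 and Col6a3.

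No member passed an adjusted p under 0.05 between the genotypes in liver by edgeR, against 0% of all 15062 genes tested, while DESeq2 called 266 genes and 1 member, Col4a1. At an unadjusted p under 0.05, 1 of the 32 members tested was lower (5.18% of all genes) and 2 were higher (5.27% of all genes). The groups did not overlap, with Tshr MKO lower, for 1 member (7.74% of all genes) and, with Tshr MKO higher, for 3 members (9.60% of all genes). The members' shares of 3.12%, 6.25%, 3.12% and 9.38% in these counts lay near or below those of all genes. The median log2 fold change over the 32 members was 0.04, against -0.01 over all genes. If Tshr f/f replicate 2 or Tshr MKO replicate 1 (as labelled) was left out, 3 members were lower (9.38% and 9.09% of those tested, against 7.57% and 3.45% of all genes in the same refits), and if the latter was left out, 0 were higher (3.56% of all genes).

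Among the type IV chains, Col4a1 had the smallest p in liver. Col4a1 (chr8:11198423-11312826, minus strand) encodes the α1 chain that pairs with α2 in nearly all basement membranes. Labelled Tshr f/f, the livers held 42.6, 47.6 and 40.1 CPM, against 26.5, 30.5 and 28.6 CPM in those labelled Tshr MKO. All 3 livers labelled Tshr MKO thus lay below all 3 labelled Tshr f/f, including the replicate 1 that was low for other collagens. The log2 fold change was -0.61 (SE 0.10), with an unadjusted p of 5.9e-04 in the edgeR test. The adjusted p was 0.303, and it ran from 9.5e-04 with DESeq2 to 0.858 over the alternatives, while the log2 fold change ran from -0.67 to -0.54 with each library left out in turn. Sample IDs in liver start with A or B, a letter the labels do not explain, and the log2 ratio of Col4a1 means was -0.65 among A samples (2 against 1 library) and -0.49 among B samples (1 against 2).

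Its partner Col4a2 (chr8:11312805-11449287, plus strand) showed no such gap in liver. Levels were 20.9, 30.8 and 19.5 CPM among livers labelled Tshr f/f and 22.9, 23.0 and 22.4 CPM in those labelled Tshr MKO, so the groups overlapped (log2 fold change -0.06, SE 0.18). Col4a5, which with Col4a3, Col4a4 and Col4a6 builds the type IV networks of kidney and other specialised basement membranes, ranged from 2.00 to 2.81 CPM in Tshr f/f and from 0.779 to 2.35 CPM in Tshr MKO as labelled. Col4a3 and Col4a4 stayed at 1.06 CPM or below in every liver, and Col4a6 at up to 1.29 CPM did not pass the filter. Of the 5 type IV genes tested, all 5 had negative log2 fold changes (median -0.61), as had 50.9% of all genes, and 1 of them, Col4a1, reached an unadjusted p under 0.05, as did 5.18% of all genes in that direction.

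Type I and type III collagen genes in liver differed more between libraries labelled Tshr f/f than between genotypes. Col1a1 and Col1a2 encode the chains of type I collagen. Col1a1 was 0.271, 10.8 and 4.18 CPM among livers labelled Tshr f/f and 5.81, 8.19 and 3.79 CPM in those labelled Tshr MKO. Col1a2 was 2.00, 15.2 and 7.80 CPM in the former and 10.2, 13.1 and 4.96 CPM in the latter. For both chains the lowest and the highest library carried the same label, Tshr f/f, and the groups overlapped. Col3a1, the chain of type III collagen, followed the same order, with 2.27, 31.6 and 15.0 CPM against 26.2, 27.8 and 15.0 CPM. Log2 fold changes were 0.22 (SE 0.98) for Col1a1, 0.18 (SE 0.69) for Col1a2 and 0.49 (SE 0.78) for Col3a1, each within 1 SE of 0. With Tshr f/f replicate 1 left out they became -0.34, -0.28 and -0.02.

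Type V collagen, which sets the diameter of type I fibrils, was split by chain. Col5a1 (3.05, 12.9 and 9.12 against 10.4, 8.43 and 5.38 CPM, Tshr f/f first as labelled) and Col5a2 (0.779 to 4.74 CPM over the 6 livers) overlapped between the genotypes. Col5a3 (chr9:20770050-20815067, minus strand), which encodes the less common α3 chain, was far more abundant than either, at 9.48 CPM per kb of exon against 0.968 for Col5a1 and 0.284 for Col5a2. Its values were 42.3, 59.1 and 59.5 CPM under the Tshr f/f label and 87, 67.0 and 72.5 CPM in those labelled Tshr MKO. Groups did not overlap for Col5a3, and the log2 fold change was 0.49 (SE 0.16, unadjusted p = 0.0195, adjusted p = 0.396 by edgeR). Col11a2, a chain of type XI collagen of cartilage, was also higher in each liver labelled Tshr MKO (3.30, 4.21 and 3.04 CPM) than in each labelled Tshr f/f (2.10, 2.48 and 2.55 CPM), with a log2 fold change of 0.57 (SE 0.23, adjusted p = 0.470). Col27a1 overlapped between the groups at 7.78, 23.2 and 16.8 CPM and 26.2, 22.5 and 32.2 CPM (log2 fold change 0.76, SE 0.37, and 0.42 without Tshr f/f replicate 1). The third member with separate groups, Col7a1 of anchoring fibrils, had 0.276 to 0.474 CPM in Tshr f/f and 0.559 to 1.14 CPM in Tshr MKO as labelled, with a log2 fold change of 1.02 (SE 0.46).

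The remaining liver members of at least 5 CPM gave no separation between genotypes. Col14a1, which coats fibril surfaces, was 5.72, 65.6 and 28.1 CPM among livers labelled Tshr f/f and 34.5, 38.5 and 27.8 CPM in those labelled Tshr MKO. Sparc was 10.5, 47.3 and 32.3 CPM in the former and 34.8, 39.0 and 27.0 CPM in the latter. Both were lowest in Tshr f/f replicate 1 and highest in Tshr f/f replicate 2, as were Col6a1 and Col6a3, chains of type VI collagen, which surrounds cells with microfibrils. Col6a1 ranged from 2.40 to 16.8 CPM and Col6a3 from 2.50 to 18.0 CPM within Tshr f/f, and the livers labelled Tshr MKO lay inside these ranges for both. Col15a1, a collagen at the border of basement membranes, was not low in Tshr f/f replicate 1 (8.02 CPM), which lay near the highest library (9.29 CPM). A further 9 members had means of 1 to 5 CPM, among them Col4a5, Col5a2 and Col11a2 above. Over the 6 livers the type VI chains Col6a2 and Col6a6 ran from 0.711 to 10.2 CPM and from 0.358 to 1.59 CPM. Collagens that associate with fibrils ranged from 1.46 to 3.32 CPM (Col12a1), 1.39 to 6.42 CPM (Col16a1) and 0.962 to 2.54 CPM (Col20a1), and the transmembrane Col13a1 from 0.812 to 4.71 CPM. These 6 overlapped between the labelled genotypes, and 7 members had 0 counts in all 6 livers, which a floor of 3 counts limits to at most 0.104 CPM.

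Fibrillar and type IV sums were compared per library. In liver, the 6 type IV genes summed to 65.9, 83.0 and 65.5 CPM in Tshr f/f and to 53.3, 55.1 and 52.5 CPM in Tshr MKO as labelled, and these groups did not overlap. Most of that gap came from Col4a1, with means of 43.5 and 28.5 CPM, against 23.8 and 22.8 CPM for Col4a2. The 11 fibrillar genes summed to 61.1, 161 and 119 CPM and to 174, 155 and 138 CPM, and these overlapped. The log2 ratio of the fibrillar to the type IV sum was -0.11, 0.95 and 0.86 in Tshr f/f and 1.71, 1.49 and 1.39 in Tshr MKO as labelled. Every liver labelled Tshr MKO therefore had the higher ratio, by 0.96 on average (mean ± SD of 0.57 ± 0.59 and 1.53 ± 0.16, n = 3 each). The average gap was 0.62 without Tshr f/f replicate 1, the library with few stellate cell markers. Col5a3 was the largest single part of the fibrillar sum in all 6 livers. Median log2 fold changes were 0.22 over the 9 fibrillar genes tested and -0.61 over the 5 type IV genes tested, and the fibrillar median was -0.02 without that library. It was 0.60 if Tshr f/f replicate 2 was left out, 0.48 if Tshr MKO replicate 3 was, and 0.50 with the replicate number as a block. The type IV median was -0.90 without Tshr MKO replicate 1 and -0.37 without Tshr MKO replicate 3, as labelled. These are descriptions of classes, with no test.

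**Figure D2:**
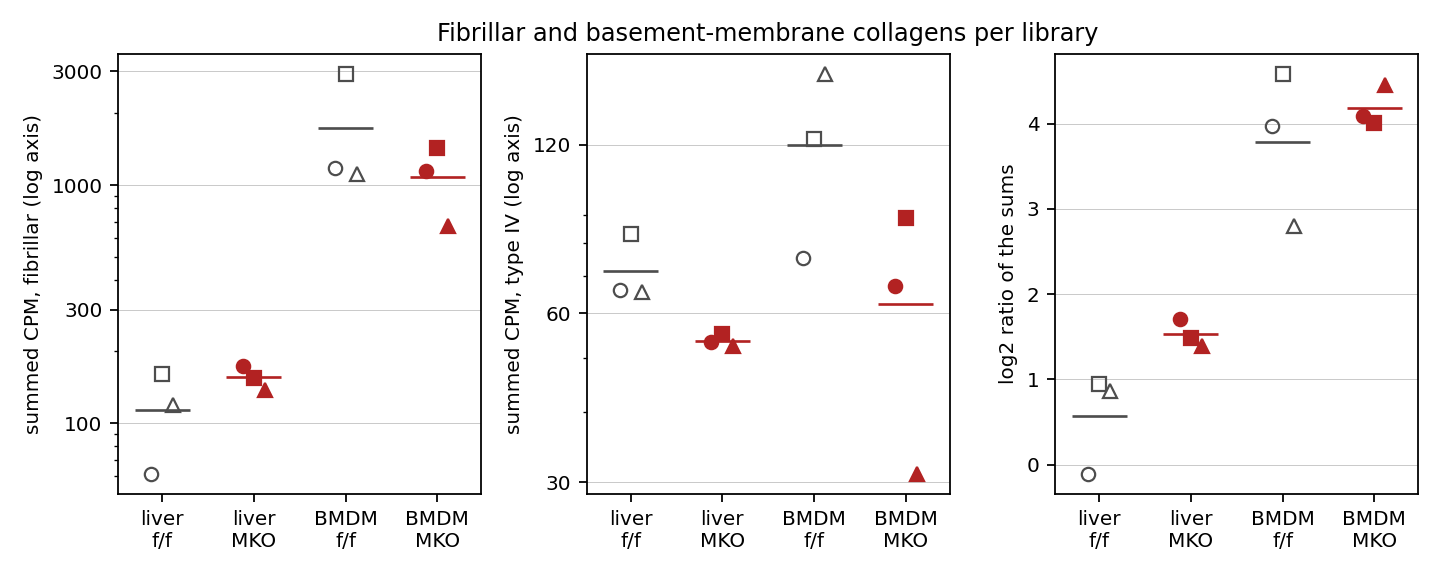
Summed TMM-normalised CPM of the fibrillar genes (left, log axis) and type IV genes (middle, log axis) and the log2 ratio of the sums (right), with 1 point per library (circle, square and triangle for replicates 1, 2 and 3), open for Tshr f/f and filled for Tshr MKO, and bars at group means. Liver ratios run from -0.11 to 0.95 in Tshr f/f and from 1.39 to 1.71 in Tshr MKO as labelled, whereas BMDM ratios overlap.

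In BMDM cultures, type I collagen led the collagens. Col1a1 and Col1a2 together with Col3a1 held the largest shares of collagen CPM, at medians of 25.1%, 29.8% and 8.51% over the 6 libraries. Col1a1 (chr11:94936224-94953042, plus strand) was 389, 1116 and 365 CPM in Tshr f/f and 325, 376 and 215 CPM in Tshr MKO. Col1a2 was 456, 875 and 420.0 CPM in Tshr f/f and 491, 589.5 and 284 CPM in Tshr MKO. Per kilobase, means over the 6 libraries were 258 for Fn1, 79.2 for Sparc, 70.8 for Col1a1, 41.8 for Col1a2 and 21.7 CPM per kb for Col6a1. These cultures held markers of other cells beside those of macrophages. The macrophage markers Adgre1 and Csf1r were at 1008 to 1536 CPM and 1551 to 2586 CPM. Of 10 fibroblast or myofibroblast markers, Pdgfra (108 to 171 CPM) and Dcn (94.2 to 204 CPM) were the highest, followed by Acta2, Tagln, Cd34, Thy1 and Postn. Lum (0.209 to 0.854 CPM), Mfap4 (at most 0.115 CPM) and Dpt (0.206 to 1.97 CPM) lay near or under 1 CPM. Of 3 mesothelial markers, Wt1 was at 15.4 to 38.2 CPM, Upk3b at 0.664 to 21.5 CPM and Msln at 0.412 to 1.54 CPM. The stellate cell list was as uneven, with Lrat at 0 counts in all 6 libraries and Reln, Colec11 and Rgs5 under 1 CPM, but Ecm1 at 104 to 186 CPM, Des at 13.7 to 33.1 CPM, Hgf at 1.92 to 33.8 CPM, Pdgfrb at 4.51 to 16.4 CPM, Hand2 at 2.65 to 5.55 CPM and Ngfr at 0.0916 to 3.41 CPM. All 8 hepatocyte markers stayed under 1 CPM. Which cells of the cultures made the collagen was not tested.

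**Figure D3:**
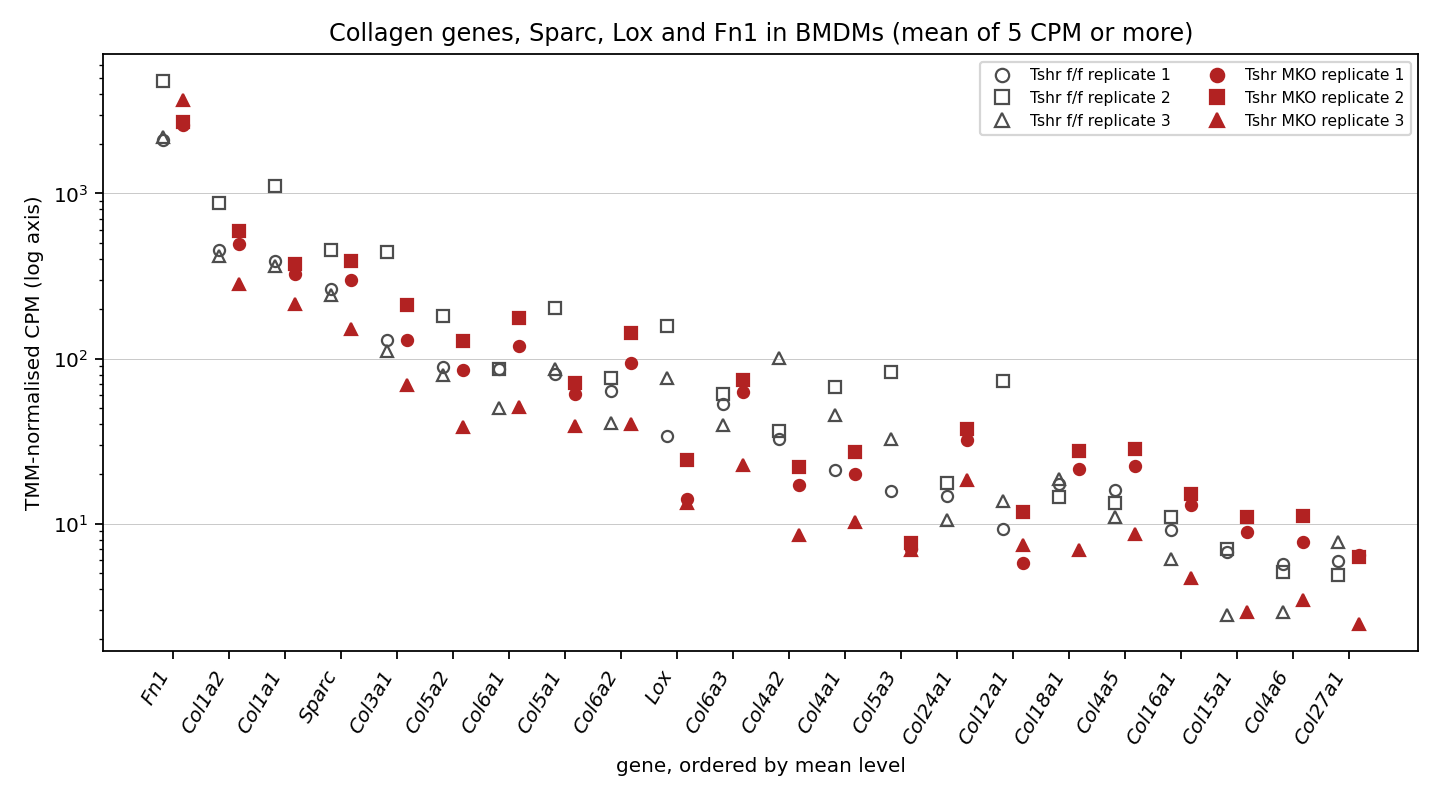
TMM-normalised CPM on a log axis of the 22 members with a mean of at least 5 CPM in BMDMs, with 1 point per library, open for Tshr f/f and filled for Tshr MKO. Tshr f/f replicate 2 is highest for Fn1, Col1a1, Col3a1, Col5a3, Lox and Col12a1, and all filled points lie below all open points for Lox, Col4a2, Col5a1 and Col5a3.

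Between the genotypes, 0 of 32 members tested passed an adjusted p under 0.05 in BMDMs by edgeR, as did 0% of all 15372 genes. DESeq2 called 1216 genes and 4 members, Col4a2, Col5a3, Lox (all lower in Tshr MKO) and Col24a1 (higher). At an unadjusted p under 0.05 by edgeR, 5 members were lower in Tshr MKO (Col5a3, Lox, Col4a2, Col5a1 and Col4a1), or 15.6%, against 10.2% of all genes. Another 2 were higher (Col24a1 and Col8a2), or 6.25%, against 7.73% of all genes. Groups did not overlap, with Tshr MKO lower, for 4 members (12.5%, against 14.0% of all genes) and, with Tshr MKO higher, for 1 member (3.12%, against 14.8% of all genes). The median log2 fold change was -0.19 over the members and 0.01 over all genes. Without Tshr MKO replicate 1 or replicate 3, 3 members were lower (9.09%, against 4.60% and 7.59% of all genes in the same refits). Tshr MKO replicate 3 had the lowest level for 19 of 32 members, and without it 7 members were higher (21.2%, against 5.96% of all genes).

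Col5a3 and Lox had the largest log2 fold changes among members of at least 5 CPM in BMDMs. Col5a3, more abundant than its type V partners in liver, was the least abundant of the 3 chains per kb of exon in BMDMs. It stood at 15.7, 83.1 and 32.4 CPM in Tshr f/f and at 7.05, 7.65 and 6.92 CPM in Tshr MKO. The 3 Tshr MKO cultures were close together and below every Tshr f/f culture, while the Tshr f/f cultures spanned a wide range. The log2 fold change was -2.60 (SE 0.59, unadjusted p = 0.00398), with an adjusted p of 0.218 in edgeR that ran from 4.4e-04 with DESeq2 to 0.587 over the alternatives. It was called by edgeR when all 12 libraries were fitted together (adjusted p = 0.0413). With each library left out in turn the log2 fold change ran from -2.99 to -1.74, the latter without Tshr f/f replicate 2, the highest culture.

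Lox (chr18:52516067-52529867, minus strand) was 33.8, 157 and 76.1 CPM in Tshr f/f and 14.2, 24.4 and 13.3 CPM in Tshr MKO. The groups did not overlap, and the log2 fold change was -2.36 (SE 0.58, adjusted p = 0.218 by edgeR, with DESeq2 at 0.00153). Without Tshr f/f replicate 2 it became -1.67. Col5a1, the α1 chain found in every type V molecule, was 80.4, 203 and 86.7 CPM in Tshr f/f and 60.7, 70.8 and 39.0 CPM in Tshr MKO, again without overlap (log2 fold change -1.12, SE 0.42, adjusted p = 0.261, and -0.56 without Tshr f/f replicate 2). Col5a2 overlapped, at 88.5, 182 and 79.5 CPM against 84.8, 128 and 38.5 CPM (log2 fold change -0.48, SE 0.50, and -0.01 without Tshr f/f replicate 2). For Col5a3, Lox, Col5a1, Col5a2, Col1a1 and Col3a1, Tshr f/f replicate 2 was the highest library. That library also had the highest levels of the contractile genes Acta2 and Tagln, at 134 and 92.9 CPM, against 16.0 to 55.6 CPM and 5.64 to 21.9 CPM in the other 5. Their part in the collagen values was not tested.

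Col24a1 ran the other way. Col24a1 (chr3:145292472-145552011, plus strand), a minor fibrillar collagen best known from bone, was 14.8, 17.6 and 10.5 CPM in Tshr f/f and 32.1, 37.7 and 18.4 CPM in Tshr MKO. Each Tshr MKO culture lay above every Tshr f/f culture, and the log2 fold change was 1.04 (SE 0.32, unadjusted p = 0.0153, adjusted p = 0.225 by edgeR and 0.0443 by DESeq2). Beside Col24a1, Col5a1 and Col5a3, the fibrillar genes tested overlapped. Col1a1 had a log2 fold change of -1.03 (SE 0.50), Col1a2 of -0.36 (SE 0.39) and Col27a1, at 2.46 to 7.72 CPM, of -0.28 (SE 0.41). Col3a1 was 130.2, 442 and 111 CPM in Tshr f/f and 130.2, 212 and 69.4 CPM in Tshr MKO, with a log2 fold change of -0.73 (SE 0.64). Without Tshr f/f replicate 2 the log2 fold changes of Col1a1, Col1a2 and Col3a1 became -0.31, 0.05 and 0.18, and without Tshr MKO replicate 3 that of Col27a1 became 0.05. Of the 9 fibrillar genes tested, 7 had negative log2 fold changes (median -0.48), as had 49.2% of all genes. An unadjusted p under 0.05 was reached by 2 of these 7 and by 1 of the 2 positive ones, against 10.2% lower and 7.73% higher of all genes.

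Type IV genes in BMDMs are described by 2 pairs of genomic neighbours. Col4a1 was 21.1, 67.3 and 45.8 CPM in Tshr f/f and 20.0, 27.3 and 10.3 CPM in Tshr MKO, with overlapping groups (log2 fold change -1.22, SE 0.51, adjusted p = 0.278). Col4a2 was 32.7, 36.5 and 101 CPM in Tshr f/f and 17.2, 22.1 and 8.58 CPM in Tshr MKO, without overlap (log2 fold change -1.82, SE 0.55, adjusted p = 0.225 by edgeR and 0.0210 by DESeq2). Without Tshr f/f replicate 3 that of Col4a2 became -1.11, and without Tshr f/f replicate 2 that of Col4a1 became -0.80. The X-linked pair Col4a5 and Col4a6 had its highest levels in Tshr MKO replicate 2. Col4a5 was 15.9, 13.3 and 10.9 CPM in Tshr f/f and 22.2, 28.4 and 8.70 CPM in Tshr MKO (log2 fold change 0.56, SE 0.42). Col4a6 was 5.72, 5.08 and 2.92 CPM in Tshr f/f and 7.70, 11.1 and 3.45 CPM in Tshr MKO (log2 fold change 0.69, SE 0.47), and both overlapped between the groups. Without Tshr MKO replicate 2 these became 0.21 and 0.28, and without replicate 3 they became 0.92 and 1.04. Col4a3 and Col4a4 had at most 8 counts in any culture.

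Other members overlapped between the genotypes in BMDMs. Fn1, at 2119, 4778 and 2207 CPM in Tshr f/f and 2615, 2705 and 3671 CPM in Tshr MKO, had a log2 fold change of -0.02 (SE 0.38). Sparc was 265, 455 and 241 CPM in Tshr f/f and 297, 392 and 150.0 CPM in Tshr MKO (log2 fold change -0.20, SE 0.41). The Tshr MKO cultures lay inside the range of the Tshr f/f cultures for Fn1, whereas for Sparc Tshr MKO replicate 3 lay below it. Col12a1, which links fibrils under tension, was 9.31, 72.9 and 13.7 CPM in Tshr f/f and 5.77, 11.8 and 7.47 CPM in Tshr MKO, with a log2 fold change of -1.94 (SE 0.81, adjusted p = 0.282) that became -0.46 without Tshr f/f replicate 2.

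The main chains of type VI collagen had higher means in Tshr MKO, with overlapping groups. Col6a1 was 86.7, 86.0 and 50.1 CPM in Tshr f/f and 119, 177 and 51.1 CPM in Tshr MKO. Col6a2 followed it, with 63.8, 76.4 and 40.5 CPM and 94.5, 143 and 39.9 CPM. The third chain, Col6a3, was 52.8, 60.9 and 39.5 CPM and 62.6, 74 and 22.8 CPM. All 3 genes overlapped between the genotypes, with log2 fold changes of 0.64 (SE 0.46), 0.62 (SE 0.47) and 0.06 (SE 0.43). For Col6a1 and Col6a2 these became 0.19 and 0.16 without Tshr MKO replicate 2 and 0.99 and 0.98 without Tshr MKO replicate 3. Col16a1 (4.68 to 15.2 CPM), Col15a1 (2.80 to 10.9 CPM) and Col18a1 (6.92 to 27.7 CPM) also had their lowest or nearly lowest level in Tshr MKO replicate 3 and their highest in Tshr MKO replicate 2. Col8a2, a short-chain collagen of basement membranes such as that of the corneal endothelium, was the second member higher at an unadjusted p under 0.05. It had 0.301, 0.115 and 0 CPM in Tshr f/f and 0.836, 2.00 and 0.217 CPM in Tshr MKO, few counts that overlapped between the groups (log2 fold change 2.76, SE 1.12, adjusted p = 0.271, with 1.83 to 3.90 when a library was left out).

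The 6 members with means of 1 to 5 CPM in BMDMs overlapped as well. Col6a5, a further type VI chain, ranged from 0.422 to 3.20 CPM, and Col11a2 from 0.527 to 4.22 CPM. Among collagens that associate with fibrils, Col14a1 ranged from 0.819 to 2.32 CPM, Col19a1 from 0.366 to 2.88 CPM, Col20a1 from 1.31 to 2.36 CPM and Col9a3, a chain of type IX collagen, from 1.04 to 3.19 CPM.

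In BMDMs, the fibrillar sum was 1184, 2924 and 1118 CPM in Tshr f/f and 1141, 1431 and 676 CPM in Tshr MKO. The type IV sum was 75.4, 123 and 160.3 CPM in Tshr f/f and 67.2, 88.9 and 31.0 CPM in Tshr MKO. Both sums had lower means in Tshr MKO and both overlapped. Their log2 ratio was 3.97, 4.58 and 2.80 in Tshr f/f and 4.09, 4.01 and 4.45 in Tshr MKO, also overlapping, with a mean difference of 0.40 that became -0.09 without Tshr f/f replicate 3, the culture with the most Col4a2. Median log2 fold changes were -0.48 over the 9 fibrillar genes and -0.33 over the 4 type IV genes tested, with no test. The fibrillar median shrank in size without Tshr f/f replicate 2, and the type IV median did so without Tshr MKO replicate 3. The type IV median was -1.50 without the filter on low counts and -1.52 with all 12 libraries fitted together, where the fibrillar medians were -0.72 and -0.47. Which class had the lower median thus changed with these fits. Both add genes of few counts, and the cause of the change was not tested.

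Upstream sequences are printed for the 3 fibrillar genes whose genotypes did not overlap in BMDMs, and for Col3a1 as a fibrillar gene with overlapping groups. RefSeq promoter entries (GRCm38.p6) matched 36 of the 47 members by symbol, and the 250 bases before the start are given 5′ to 3′ on the gene's strand. They lie at chr9:20815068-20815317 (minus) for Col5a3, chr2:27886175-27886424 (plus) for Col5a1, chr3:145292222-145292471 (plus) for Col24a1 and chr1:45311288-45311537 (plus) for Col3a1, and none overlaps an annotated exon in GENCODE M21. Capitals mark letter matches on either strand. The TATA box was searched as TATAAA. For the CCAAT box the letters were CCAAT, for the GC box they were GGGCGG, and for an AP-1 site they were TGANTCA.
Col5a3: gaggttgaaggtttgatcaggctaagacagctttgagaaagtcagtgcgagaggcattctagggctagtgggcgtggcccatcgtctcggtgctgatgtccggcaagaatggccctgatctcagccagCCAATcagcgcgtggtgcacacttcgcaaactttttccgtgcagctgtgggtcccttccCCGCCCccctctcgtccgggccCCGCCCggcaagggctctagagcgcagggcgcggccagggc
Col5a1: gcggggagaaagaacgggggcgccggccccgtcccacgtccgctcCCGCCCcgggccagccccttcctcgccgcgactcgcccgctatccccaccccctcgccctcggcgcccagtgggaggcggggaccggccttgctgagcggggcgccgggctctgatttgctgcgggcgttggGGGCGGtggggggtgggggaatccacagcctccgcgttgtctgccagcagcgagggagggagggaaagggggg
Col24a1: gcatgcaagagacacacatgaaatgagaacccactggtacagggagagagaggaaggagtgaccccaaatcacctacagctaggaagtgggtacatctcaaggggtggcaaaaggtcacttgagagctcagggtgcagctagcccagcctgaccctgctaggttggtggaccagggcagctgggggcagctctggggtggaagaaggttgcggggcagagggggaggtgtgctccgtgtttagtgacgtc
Col3a1: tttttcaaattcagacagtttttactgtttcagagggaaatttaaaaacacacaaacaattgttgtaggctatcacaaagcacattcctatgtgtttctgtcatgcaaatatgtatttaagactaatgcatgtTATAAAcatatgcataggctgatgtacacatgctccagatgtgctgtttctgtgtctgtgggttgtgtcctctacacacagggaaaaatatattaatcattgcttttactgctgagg

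Col5a3 and Col5a1 each held 2 GC box matches, Col5a3 also 1 CCAAT match, Col3a1 1 TATA match and Col24a1 none of the 4 motifs. GC content of these windows was 62.8%, 76.4%, 35.2% and 58.0% for Col5a3, Col5a1, Col3a1 and Col24a1, against a median of 52.4% over all 32851 windows of the table. GC box letters were found in 22 of the 39 windows of members (56.4%), some of which belong to the same gene, and in 32.7% of all windows. The other motifs were about as frequent among the members as elsewhere or less so, with 12.8% against 12.4% for TATAAA, 33.3% against 33.8% for CCAAT and 2.6% against 6.7% for TGANTCA. Letter matches are descriptions of these windows and say nothing of binding.

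Col4a1 and Col4a2 share a promoter region in opposite orientations, and their ratio per library was therefore described. Their annotated starts overlap at chr8:11312805 and chr8:11312826, 21 bases apart, so all 250 bases of either upstream window lie within annotated exons and are not printed. Per kilobase of exon, the ratio of Col4a1 to Col4a2 was 1.80, 1.37 and 1.82 in livers labelled Tshr f/f and 1.03, 1.18 and 1.13 in those labelled Tshr MKO. The liver groups did not overlap. In BMDMs the ratio was 0.573, 1.64 and 0.403 in Tshr f/f, the widest spread of the 4 groups, and 1.03, 1.10 and 1.06 in Tshr MKO. All 6 libraries labelled Tshr MKO in both tissues lay between 1.03 and 1.18. This pattern depends on the liver labels and was not tested.

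Ratios of other chain pairs are given in the same way. Col6a1 and Col6a2, neighbours on chromosome 10, had ratios of 2.14 to 2.58 in all 6 BMDM libraries and of 3.02 to 6.43 in liver, where the highest belonged to Tshr f/f replicate 1 with few counts. For type I collagen, whose usual molecule has more α1 than α2 chains, the ratio of Col1a1 to Col1a2 was 1.62, 2.42 and 1.65 in control cultures and 1.25, 1.21 and 1.43 in knockout cultures, without overlap. In liver it was 0.257, 1.35 and 1.02 in Tshr f/f and 1.08, 1.18 and 1.45 in Tshr MKO as labelled, with overlap. Exon lengths were the union over all annotated transcripts, so the size of a ratio depends on the annotation but its comparison between libraries does not.

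**Figure D4:**
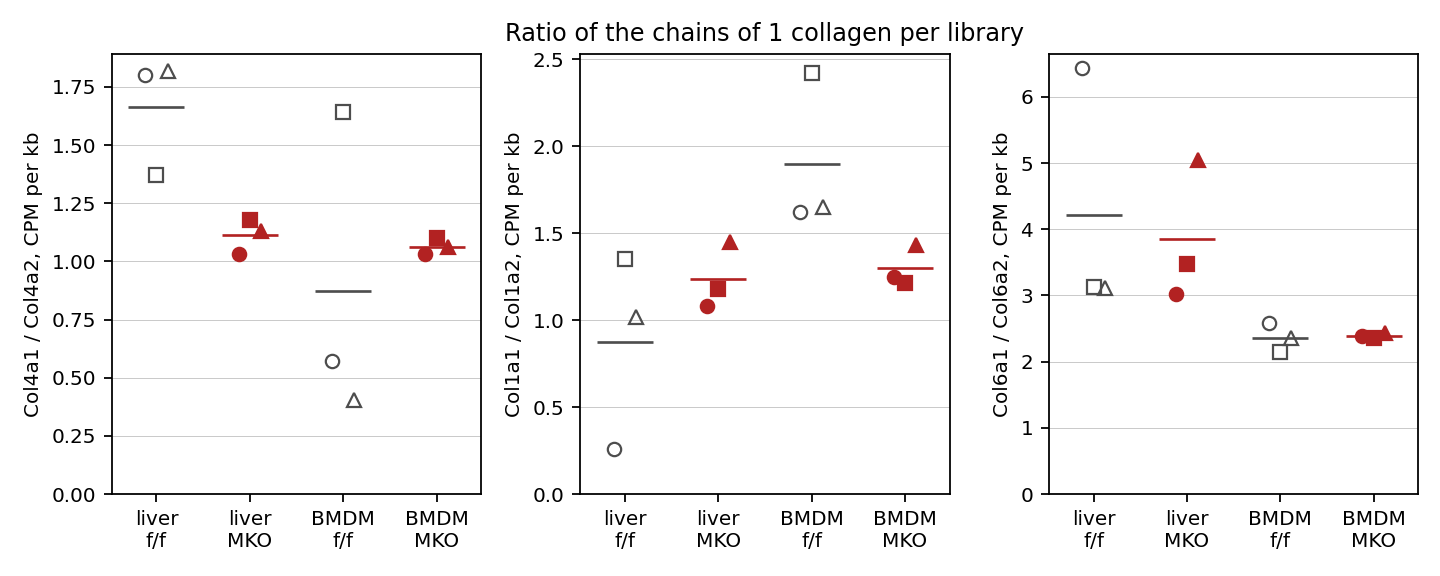
Ratio of CPM per kb of exon for Col4a1 over Col4a2 (left), Col1a1 over Col1a2 (middle) and Col6a1 over Col6a2 (right), with 1 point per library, open for Tshr f/f and filled for Tshr MKO, and bars at group means. Col4a1 over Col4a2 lies between 1.03 and 1.18 in all 6 libraries labelled Tshr MKO, and from 0.403 to 1.82 in those labelled Tshr f/f.

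Control BMDMs and control livers were compared to see which collagens each holds. Of 32 members tested within Tshr f/f, 13 were higher in BMDMs at an adjusted p under 0.05 by edgeR (40.6%, against 29.6% of all 15931 genes) and 6 were lower (18.8%, against 33.8% of all genes). Fibrillar genes made up 6 of the 13. Of these 19 calls 14 held with each library left out in turn. The calls of Col3a1, Col6a1 and Col6a2 were lost without Tshr f/f replicate 1 or 2 of the BMDMs or replicate 3 of the livers (adjusted p of 0.0580 to 0.125), that of Col12a1 without liver replicate 1 or 2 (0.0666 and 0.0631), and that of Col15a1 without BMDM replicate 1, liver replicate 1 or 3 (0.0590 to 0.109) or without the filter on low counts (0.0552). Without BMDM replicate 2 the differences of Col12a1 and Col3a1 became 1.63 and 2.00. Log2 differences (BMDM minus liver) were 6.02 (SE 1.32) for Col1a1, 5.22 (SE 0.83) for Col1a2, 4.38 (SE 0.70) for Col5a2, 4.04 (SE 0.31) for Col24a1, 2.98 (SE 0.64) for Col5a1 and 2.90 (SE 1.01) for Col3a1. Lox (7.46, SE 1.02), Sparc (2.51, SE 0.59), Col12a1 (3.09, SE 0.86), Col6a1 (2.17, SE 0.68), Col6a2 (2.65, SE 0.84) and Col4a5 (1.58, SE 0.26) were higher as well. Col19a1, with 0 counts in all control livers, was at least 8.52-fold higher in BMDMs against a floor of 3 counts per library.

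The members lower in control BMDMs than in control livers included Col18a1 (log2 difference -6.77, SE 0.27), Col14a1 (-5.39, SE 0.95), Col6a6 (-4.04, SE 0.81), Col27a1 (-2.27, SE 0.44) and Col15a1 (-1.31, SE 0.43). Col13a1, a transmembrane collagen, had 0 counts in all 3 control cultures and was at least 61.1-fold lower there. Fn1 (-0.72, SE 0.41), Col4a1 (-0.85, SE 0.40), Col4a2 (0.36, SE 0.48) and Col5a3 (-1.19, SE 0.58) did not pass the test. Without BMDM replicate 2, Fn1, Col4a1 and Col5a3 were called as well. DESeq2 called 22 of the 32 members and 10886 of all 15931 genes, and edgeR without the filter called 22 of 43 members. The order of fibrillar genes thus differed by source, with Col5a3 first in liver and type I first in culture.

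Whether the genotype difference itself depended on the source was tested in 1 fit of all 4 groups. No member of 38 tested passed an adjusted p under 0.05 by edgeR (0.00580% of all 17246 genes did), while DESeq2 called 801 genes and 2 members, Col5a3 and Lox. At an unadjusted p under 0.05, 4 members had a more negative difference in BMDMs than in liver (7.42% of all genes) and 0 a more positive one (7.12% of all genes). With 1 library left out these counts ran from 3 to 5 (5.05% to 10.5% of all genes) and from 0 to 3 (5.15% to 9.11% of all genes). Without BMDM Tshr MKO replicate 3 they were 3 and 3 (7.69% each, against 6.94% and 6.24% of all genes). Without liver Tshr MKO replicate 1 or Tshr f/f replicate 2 as labelled, 2 were more positive (5.13% each, against 5.84% and 6.24% of all genes). Among the 4 members found with all libraries kept, Col5a3 was lower in Tshr MKO BMDMs and higher in livers labelled Tshr MKO. The gap between its log2 fold changes was -3.09 (SE 0.65, unadjusted p = 6.6e-04, adjusted p = 0.129). It passed an adjusted p under 0.05 in the absence of BMDM Tshr f/f replicate 1 (adjusted p = 0.0273) or replicate 2 (adjusted p = 0.0225). Lox (-3.13, SE 1.06), Col4a2 (-1.77, SE 0.62) and Col12a1 (-2.26, SE 0.96) were the other 3, with adjusted p-values of 0.240, 0.252 and 0.322. The gap of Lox rests in part on few liver counts. There Lox had 0 to 0.690 CPM, at most 29 counts, and a log2 fold change of 0.75 (SE 0.95). The gap became -2.45 for Lox and -0.80 for Col12a1 without BMDM Tshr f/f replicate 2, and -1.04 for Col4a2 without BMDM Tshr f/f replicate 3.

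Because a table from the study gave the liver genotypes the other way round, the gaps were also computed with the liver labels exchanged, an alternative chosen after the data were seen. They then were -2.08 (SE 0.64) for Col5a3, -1.87 (SE 0.62) for Col4a2, -1.57 (SE 1.09) for Lox and -1.57 (SE 0.96) for Col12a1, while that of Col4a1 went from -0.62 (SE 0.55) to -1.81 (SE 0.55). At an unadjusted p under 0.05, 3 members (Col5a3, Col4a1 and Col4a2) were more negative in BMDMs (7.89%, against 7.46% of all genes) and 0 more positive (6.62% of all genes), and no adjusted p was below 0.258 in that edgeR fit. With the labels as given, 8 of 9 macrophage markers had negative log2 fold changes in liver, against 50.9% of all genes, and 0 of the 9 reached an unadjusted p under 0.05 by edgeR. Without Tshr f/f replicate 2 as labelled, only Itgam and Mertk kept a lower mean CPM under the Tshr MKO label. The count of negative values therefore depended on that library. Lyz2, the gene of the Cre locus, had 56 counts (1.56 CPM) in Tshr MKO replicate 1 as labelled and 818 to 4473 counts in the other 5 livers, with overlapping groups. Itgam, an integrin of myeloid cells, stood at 5.72, 13.9 and 5.01 CPM under the Tshr f/f label and at 2.10, 8.02 and 1.59 CPM under the Tshr MKO label, with overlap. Which set of labels is right was not tested.

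**Figure D5:**
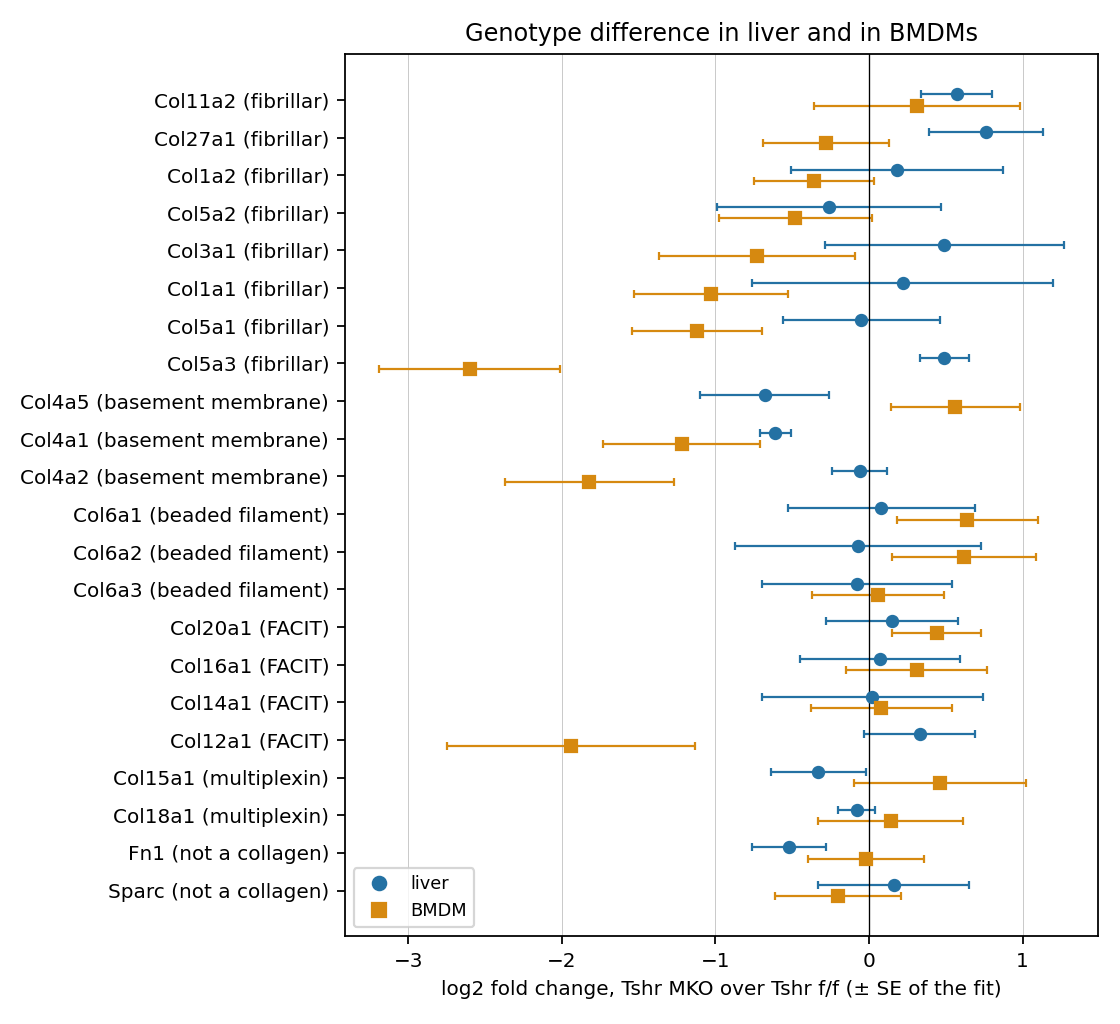
Log2 fold change of Tshr MKO over Tshr f/f with its SE in liver (circles) and BMDMs (squares) for the 22 members with a mean of at least 1 CPM and a test in both. Col5a3 lies at -2.60 in BMDMs and 0.49 in liver, and Col4a1 lies below 0 in both (-1.22 and -0.61).

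Lists of genes that work with collagens were counted in the same fits. In liver, of 32 tested genes of collagen biosynthesis (hydroxylases, chaperones, export and processing enzymes) 4 were lower and 1 higher at an unadjusted p under 0.05, with a median log2 fold change of -0.07. Over all genes the shares at that threshold were 5.18% lower and 5.27% higher, with a median of -0.01, and for this and the other lists no share was tested against them. Its most abundant genes were P4hb, a subunit of prolyl 4-hydroxylase (-0.06, SE 0.24), the collagen export factors Mia2 (-0.15, SE 0.12) and Mia3 (-0.24, SE 0.13), and Bmp1, the C-proteinase of procollagen, at 211, 170.4 and 195 CPM against 159.6, 163 and 158 CPM (-0.26, SE 0.11, adjusted p = 0.463). Laminins, nidogens and other basement-membrane partners had 17 of 19 negative log2 fold changes in liver (median -0.15), against 50.9% of all genes, 1 of them at an unadjusted p under 0.05, and their 4 most abundant genes were Smoc1 (-0.16, SE 0.08), Agrn (-0.04, SE 0.13), Hspg2, or perlecan (-0.10, SE 0.58), and Lamc1 (-0.58, SE 0.31). Without Tshr f/f replicate 2 as labelled, Agrn and Hspg2 turned to 0.05 and 0.37, so the count of negative values depended on that library.

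Matrix proteoglycans and glycoproteins had 20 of 23 negative values in liver (median -0.21, again against 50.9% of all genes), with none at an unadjusted p under 0.05. Vitronectin (Vtn) led with -0.30 (SE 0.19), before Dcn (-0.29, SE 0.64), Bgn (-0.23, SE 0.61) and Tgfbi (-0.43, SE 0.54). Without Tshr f/f replicate 2 as labelled, only Vcan and Vtn kept a lower mean CPM under the Tshr MKO label. Dcn, Bgn and Tgfbi then turned to 0.35, 0.39 and 0.27, so the count of negative values depended on that library. Of 15 receptors of collagen and fibronectin tested, 1 was lower (median -0.15), and Itgb1, Itgb5, Itga5 and Mrc1 had log2 fold changes of -0.16 (SE 0.09), -0.01 (SE 0.14), -0.31 (SE 0.21) and -0.00 (SE 0.41). Of 23 genes of the TGF-beta axis, which drives collagen expression, 4 were lower (median -0.10): Tgfbr1, at 24.4, 24.3 and 27.8 CPM against 19.0, 22.9 and 21.7 CPM (-0.27, SE 0.11, adjusted p = 0.470), and Smad3, Smad7 and Skil, named after their values were seen. Ski (-0.22, SE 0.17), Ltbp4 (0.07, SE 0.67) and Smad4 (-0.09, SE 0.10) were its other abundant genes. No gene of the 5 lists passed an adjusted p under 0.05 by edgeR in either source.

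In BMDMs, 34 biosynthesis genes were tested, of which 4 were lower (P4ha1, P4ha2, P4ha3 and Tmem38b) and 2 higher (Plod1 and Loxl3) at an unadjusted p under 0.05, names chosen after their values were seen (median log2 fold change -0.26). Over all genes 10.2% were lower and 7.73% higher at that threshold (median 0.01), which the counts of the lists in BMDMs should be read against. The abundant genes P4hb (-0.13, SE 0.21), Serpinh1, the collagen chaperone (-0.30, SE 0.34), Colgalt1 (0.24, SE 0.14) and Ppib (-0.22, SE 0.13) did not reach it. Among 17 basement-membrane partners 1 was lower and 1 higher (median -0.12). Agrn, agrin, was 78.1, 43.5 and 165 CPM in Tshr f/f and 47.5, 40.9 and 37.0 CPM in Tshr MKO (-1.19, SE 0.46, adjusted p = 0.263, and -0.54 without Tshr f/f replicate 3), and Hspg2 (-0.26, SE 0.24), Lamc1 (-0.02, SE 0.15) and Nid1 (-0.12, SE 0.33) overlapped between the groups. Of 25 matrix proteoglycans and glycoproteins 3 were lower and 0 higher (median 0.09). Thbs1 (-1.06, SE 1.17), Tgfbi (0.09, SE 0.60), Bgn (-0.43, SE 0.34) and Fbln2 (-0.53, SE 0.37) led that list. That of Thbs1 was -3.08 without Tshr MKO replicate 3 and -0.39 without Tshr f/f replicate 3.

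Receptors and the TGF-beta axis followed in BMDMs. Tgfbr2, a TGF-beta receptor, was higher in each Tshr MKO culture (at least 200 CPM) than in each Tshr f/f culture (136, 137 and 44.3 CPM; log2 fold change 1.07, SE 0.42, adjusted p = 0.266 by edgeR). Of 23 genes on this axis 3 were lower and 3 higher (median -0.17), with Tgfb1 at -0.39 (SE 0.28) and Skil at -0.40 (SE 0.21). Mrc1, a mannose receptor of macrophages that also binds collagen, was 126, 53.7 and 70.1 CPM in Tshr f/f and 315, 247 and 532 CPM in Tshr MKO (2.13, SE 0.43, adjusted p = 0.218). Itga5, the fibronectin receptor chain, was 245, 200.2 and 375 CPM against 183, 162 and 117 CPM (-0.83, SE 0.29, adjusted p = 0.252), without overlap. Itgb1, the β1 integrin chain, did not overlap either, at 921, 685 and 1802 CPM against 666, 669 and 613 CPM (-0.81, SE 0.37, adjusted p = 0.307), and Itga4 (-0.29, SE 0.39) overlapped. Without Tshr f/f replicate 3 the log2 fold changes of Tgfbr2, Itga5 and Itgb1 became 0.70, -0.53 and -0.31. Of the 17 receptors tested 3 were lower and 2 higher (median -0.18).

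Markers of cell types were summed per library beside these values. In BMDMs, fibroblast or myofibroblast markers summed to 326 to 586 CPM in Tshr f/f and to 248 to 426 CPM in Tshr MKO, with Lum and Mfap4 under 1 CPM in all 6. Macrophage markers summed to 15805-16979 CPM in Tshr f/f and to 20841-30541 CPM in Tshr MKO, without overlap. The separation came from Lyz2, whose promoter drives Cre, at 8773 to 9843 CPM in Tshr f/f and 14537 to 22320.1 CPM in Tshr MKO. With Lyz2 left out the sums overlapped. What its level says of the BMDM genotype labels was not tested. Mesothelial markers were 17.2 to 27.2 CPM in Tshr f/f and 17.6 to 60.5 CPM in Tshr MKO, and stellate cell markers 157 to 208 CPM and 209 to 258 CPM, mostly from Ecm1. Neutrophil markers were 7.31 to 48.7 CPM and 4.64 to 10.3 CPM, osteoclast markers 236 to 325 CPM and 259.8 to 344 CPM, and Kupffer cell markers 229 to 505 CPM and 64.8 to 373 CPM, with Clec4f at 0. Endothelial markers, carried by Fcgr2b (which macrophages express), were 735 to 1959 CPM and 351 to 1104 CPM, and cholangiocyte markers, carried by Spp1, were 227 to 558 CPM and 832 to 1277 CPM.

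In livers labelled Tshr f/f and Tshr MKO, fibroblast or myofibroblast markers summed to 28.4 to 214 CPM and 83.6 to 117 CPM, macrophage markers to 143 to 402 CPM and 161 to 363 CPM, and Kupffer cell markers to 223 to 589.9 CPM and 195 to 503 CPM. Cholangiocyte markers were 51.5 to 113 CPM and 68.1 to 74.1 CPM, mesothelial markers 0.440 to 2.19 CPM and 0.566 to 4.93 CPM, neutrophil markers 5.87 to 70.0 CPM and 7.32 to 14.4 CPM, and genes of the osteoclast list 78.5 to 124 CPM and 104 to 130.3 CPM. Tshr f/f replicate 1, the library with the lowest Col1a1 and Col3a1, had the lowest sums of the stellate, fibroblast and endothelial lists. Its sums of the macrophage, cholangiocyte, mesothelial and osteoclast lists were the lowest as well, and that of the neutrophil list was the highest. Col5a3 was also lowest in that library, at 42.3 CPM, whereas Col4a1 (42.6 CPM) and Col18a1 (1057 CPM) were not.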

How the data were processed

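Deposited values are raw counts of reads per gene, made by the authors from strand-specific TruSeq libraries read on a NovaSeq instrument. The submitters' processing notes name FastQC 0.11.2, STAR, StringTie and mm10, the paper adds Skewer, and the counting program and its strand setting are not given in the sources used here. Of 55335 genes, those past filterByExpr were tested with edgeR 4.0.16 in R 4.3.3 (quasi-likelihood, robust, TMM), with Benjamini-Hochberg adjustment over all genes tested. SE is the size of a log2 fold change over the square root of F. Compared were the genotypes in each source, control BMDMs with control livers, and the genotype effects of both sources in 1 fit. The study names the MARS model of DEGseq, which it writes out for counts from a pair of samples, and edgeR was used here in its place.

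Members and lists were chosen with earlier results of these data known. In full were described members with a mean of at least 5 CPM in a tissue, as ranges those of 1 to 5 CPM, and, from each list of partner genes, the 4 with the highest mean CPM. Of the latter, 1 gene is not reported here. Members at an unadjusted p under 0.05 below that level were named after their values were seen. Alternatives were RLE scaling, no filter, DESeq2 1.42.0, a replicate block, all 12 libraries, the sample ID letter, each library left out and, chosen after the data were seen, exchanged liver labels. Scripts were tested on simulated data. Col21a1 is not analysed here. Tables and figures used matplotlib 3.10.9, numpy 2.4.6, pandas 2.3.3 and python 3.11.15. Totals of 28962878 to 40954211 counts per library limit low members most.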

Additional observations from a re-analysis of the deposited data

How the results depend on the processing

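Each alternative changed 1 choice, except that the fit of all 12 libraries also changed the genes tested, the scaling and the dispersion, that DESeq2 brought its own size factors and dispersions with its test, and that the filter was applied anew without each library. Where a value below moved or turned, the cause was not tested. With DESeq2, 1 member was called in liver and 4 in BMDMs, and 2 for the gap between sources, where edgeR called 0. DESeq2 called 266, 1216 and 801 of all genes in these comparisons. The fit of all 12 libraries called 1 member and 150 of all genes in BMDMs. Leaving out 1 library gave 0 to 1 member calls for the gap, beside 0 to 341 of all genes. In liver, members lower at an unadjusted p under 0.05 numbered 2 without the filter, 2 with DESeq2, 0 with all 12 libraries and 1 to 3 with a library left out. Members higher in liver numbered 1 with RLE scaling, 0 with the replicate block, 1 with all 12 libraries, 1 with the ID letter as covariate and 0 to 2 with a library left out. In BMDMs, 3 to 6 were lower and 0 to 7 higher with a library left out, and 1 was higher with all 12 libraries. The median of type IV genes in BMDMs was -1.50 without the filter and -1.52 with all 12 libraries, which both add genes of few counts.

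Replicate numbers did not pair the samples. Same-numbered libraries correlated at -0.066, 0.252 and -0.029 in liver and at 0.136, 0.027 and 0.113 in BMDMs, and not every library correlated best with its own number. The replicate block called 0 members in either source and 1 gene of all in BMDMs. With it the log2 fold change turned to 0.35 for Col6a2, 0.21 for Col6a3, 0.07 for Col6a6, 0.08 for Col5a1, 0.16 for Hspg2, 0.05 for Dcn and 0.07 for Bgn in liver, and to -0.08 for Col6a3, -0.05 for Col18a1 and 0.08 for Fn1 in BMDMs. With the ID letter in liver it turned to 0.01 for Col4a2, -0.13 for Col16a1, -0.10 for Col1a2, -0.05 for Col13a1, 0.06 for P4hb and -0.06 for Ltbp4.

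Leaving out 1 library turned the sign of further members in liver, with ranges of -0.19 to 0.17 for Col4a2, -0.37 to 0.94 for Col6a1, -0.58 to 0.92 for Col6a2, -0.54 to 0.59 for Col6a3, -0.55 to 0.29 for Col6a6, -0.48 to 0.98 for Col14a1, -0.35 to 0.50 for Col16a1, -0.10 to 0.74 for Col20a1, -0.34 to 1.41 for Col1a1, -0.28 to 0.94 for Col1a2, -0.02 to 1.41 for Col3a1, -0.45 to 0.41 for Col5a1, -0.70 to 0.24 for Col5a2, -0.25 to 0.65 for Sparc and -0.34 to 0.67 for Col13a1. Among partner genes in liver the ranges were -0.16 to 0.05 for Agrn, -0.56 to 0.37 for Hspg2, -0.21 to 0.23 for P4hb, -0.15 to 0.10 for Itgb5, -0.76 to 0.35 for Dcn, -0.70 to 0.39 for Bgn, -0.83 to 0.27 for Tgfbi and -0.42 to 0.75 for Ltbp4. In BMDMs they were -0.26 to 0.42 for Col6a3, -0.33 to 0.38 for Col14a1, -0.18 to 0.80 for Col11a2, -0.59 to 0.05 for Col1a2, -0.50 to 0.05 for Col27a1, -1.19 to 0.18 for Col3a1, -0.26 to 0.54 for Col18a1, -0.21 to 0.47 for Fn1 and -0.52 to 0.15 for Sparc, and -0.09 to 0.09 for Lamc1, -0.38 to 0.17 for Nid1, -0.21 to 0.07 for P4hb and -0.33 to 0.85 for Tgfbi. None of these had reached an unadjusted p under 0.05. Col4a1 and Col5a3 were not among the genes that turned. Without turning, further values moved by over 1.5 times with a library left out, none of which had reached an unadjusted p under 0.05 with all libraries kept. In liver the ranges were -1.15 to -0.37 for Col4a5, 0.08 to 0.63 for Col12a1, -0.57 to -0.14 for Col15a1, -0.17 to -0.04 for Col18a1, -0.87 to -0.28 for Lamc1, -0.21 to -0.06 for Mia2, -0.56 to -0.19 for Itga5, -0.45 to -0.11 for Vtn, -0.38 to -0.14 for Ski and -0.16 to -0.05 for Smad4. In BMDMs they were 0.13 to 1.18 for Col6a5, -1.67 to -0.31 for Col19a1, -1.14 to -0.56 for Col9a3, 0.11 to 0.85 for Col15a1, 0.00 to 0.68 for Col16a1, -0.40 to -0.05 for Hspg2, -0.61 to -0.02 for Serpinh1, -0.64 to -0.11 for Itga4, -0.70 to -0.16 for Bgn, -0.71 to -0.12 for Fbln2, -0.59 to -0.04 for Tgfb1 and -0.55 to -0.20 for Skil. Depths of 28962878 to 40954211 counts leave members of few counts, such as Col8a2, with wide errors.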
